A study of Mus musculus with 14 samples.

Results

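Rab GTPases, the proteins that regulate them, syntaxins, syntaxin binding proteins, sorting nexins and vacuolar protein sorting factors move membrane between the compartments of a cell. Levels of 137 genes of this kind were compared across 7 mouse tissues. The genes were chosen by the titles that the submitters gave to UniGene clusters, that is by a title beginning with RAB and a digit (64 genes), Vacuolar protein sorting (29), Syntaxin (19) or Sorting nexin (25). The RAB titles also cover effectors and exchange factors such as the Rab11 family interacting proteins, and the Syntaxin titles cover the syntaxin binding proteins. They were 137 of 22221 genes in all and held 129471 counts. The title rule itself uses no measured value, although it was drawn up with earlier results of these data known.

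The study counted 20-base signature tags in 14 libraries, 1 from male and 1 from female C57BL6 mice for each of hippocampus, spinal cord, bone marrow, liver, pancreas, parotid gland and stomach. The labels name no treatment, age or number of animals. The liver titles name the left lobe for the male and the right lobe for the female library, so lobe and sex cannot be told apart. With 1 library per tissue and sex, replicates of a tissue differ in sex, and p-values measure only the spread between these libraries.

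A Rab protein is a small GTPase that marks a membrane and, when loaded with GTP, recruits motors, tethers and fusion factors. SNARE proteins, among them the syntaxins, then pull the membranes together, and Munc18-type syntaxin binding proteins guide that step. Behind the fusion step, endosomal machines sort the cargo: sorting nexins and retromer send receptors back, ESCRT complexes pass them to the lysosome, and the HOPS, CORVET and GARP complexes tether endosomes, lysosomes and Golgi vesicles. Neurons, exocrine glands, blood cells and polarised epithelia are known for specialised sets of these genes.

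Each tag begins with the GATC site cut by DpnII, shown in capitals, and runs into the 16 bases that follow it in the transcript. The most abundant tags of 9 genes that set tissues apart are shown here. The level of a gene is the sum of all its counted tags, so a shown tag can hold only a part of it. For Rab3d the shown tag had 352 counts and the second tag 274.
Rab3a: GATCgccatatggaccacct
Rab6b: GATCcgttgctgaccttgcg
Stx1a: GATCttgtgacagtgtgtgt
Rab37: GATCagggaggagcctgggc
Rab3d: GATCcacctgcctgtgcctc
Rab26: GATCagccaaggctcccagc
Rab25: GATCtgcccaccatattcct
Rab17: GATCtgaggactctaaaacc
Stx11: GATCctgagtgtatttcatg

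Library totals ran from 2194028 to 3834568 counts. Levels are given as TMM-scaled CPM, counts scaled to a common library size corrected for the few genes that dominate some tissues. This correction was large in pancreas, where 1 count was worth 2.56 CPM in the male and 1.97 CPM in the female library, against 0.176 to 0.524 CPM in the other 12. A gene at 0 could therefore lie at up to 7.68 or 5.9 CPM in pancreas (3 counts, counting error only). The marker list of each tissue was highest in the libraries of that label. The 5 neuron markers summed to between 1257 and 2089 CPM in the hippocampus and spinal cord libraries and to at most 16 CPM in the others. Some lists had counts elsewhere too. Parotid markers summed to 14171 and 8742 CPM in pancreas, of which Amy1 alone held 14148 and 8108 CPM (male, female). The other members were far lower there, Smr3a with 0 and 151 CPM, Car6 with 0 and 51.1 CPM and Bpifa2 with 23 and 431 CPM. Skeletal muscle markers summed to 341 and 250 CPM in parotid gland (male, female). In bulk tissue, fewer cells of a type and less RNA per cell cannot be told apart.

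The stomach pair stood apart before any result on tissues. In a test of the sex difference in 1 tissue against that in the other 6, 22.3% of 14682 genes differed in stomach (edgeR quasi-likelihood test, adjusted p under 0.05), against at most 1 gene (0.00681%) in each other tissue. In liver the male over female difference of that gene lay below that in the other 6 tissues (0.00681%), and in pancreas and parotid gland above it (0.00681% each). Among the 128 genes of vesicle traffic that passed the filter on low counts, 38 did so. The number of genes called in stomach is therefore described with both libraries and with 1 left out. The log2 differences and adjusted p of single genes in stomach use both.

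Of the 137 genes, 128 had enough counts to be tested and 87 had a count in all 14 libraries. Among the 9 that were not tested were Rab19, Rab33a, Rab9, Rab39, Rab24, Snx22 and the rarer of the 2 clusters for Snx6. A joint edgeR test for any difference among the 7 tissues called 94 of the 128 (73.4%), against a background of 80.6% of all tested genes. It called 48 of 59 RAB genes, 14 of 17 syntaxin genes, 18 of 23 sorting nexins and 14 of 29 vacuolar protein sorting genes. The share for the last group was 48.3%. In each title group the joint test called more genes without either stomach library and fewer without either bone marrow library. Each fit with 1 library left out applied the filter on low counts anew. Counts over the whole set from such a fit can therefore include genes outside the 128. Without the female stomach library 25 of the 29 vacuolar protein sorting genes were called (86.2%), and 23 without the male one (79.3%), beside 94.9% of the RAB genes in each case. With both left out it was 24 of 29, while 90% of all tested genes were called. The same count was 9 without either bone marrow library, either pancreas library or the male spinal cord library, and 7 without the female spinal cord library.

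Set against the mean of the other 6 tissues, a gene was called when its adjusted p was under 0.05 and its fold at least 2. Here and below, a mean of other tissues is a mean of log levels, which tissues at or near 0 pull down. A fold is therefore not a ratio to the mean CPM. Rab25 in pancreas averaged 39.4 CPM beside 32.7 CPM over the other tissues, and its log2 difference was 5.58. By that rule 88 of the 128 genes (68.8%) were called in at least 1 tissue, beside a background of 81.3% of all tested genes, and 14 (10.9%) in at least 4, beside 13.7%. The plot of called shares sets these shares beside those of all tested genes. They lay near each other for the nervous tissues, hippocampus and parotid gland, and fewer genes of the set were called higher in bone marrow and liver, a difference that was not tested.

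**Figure D1:**
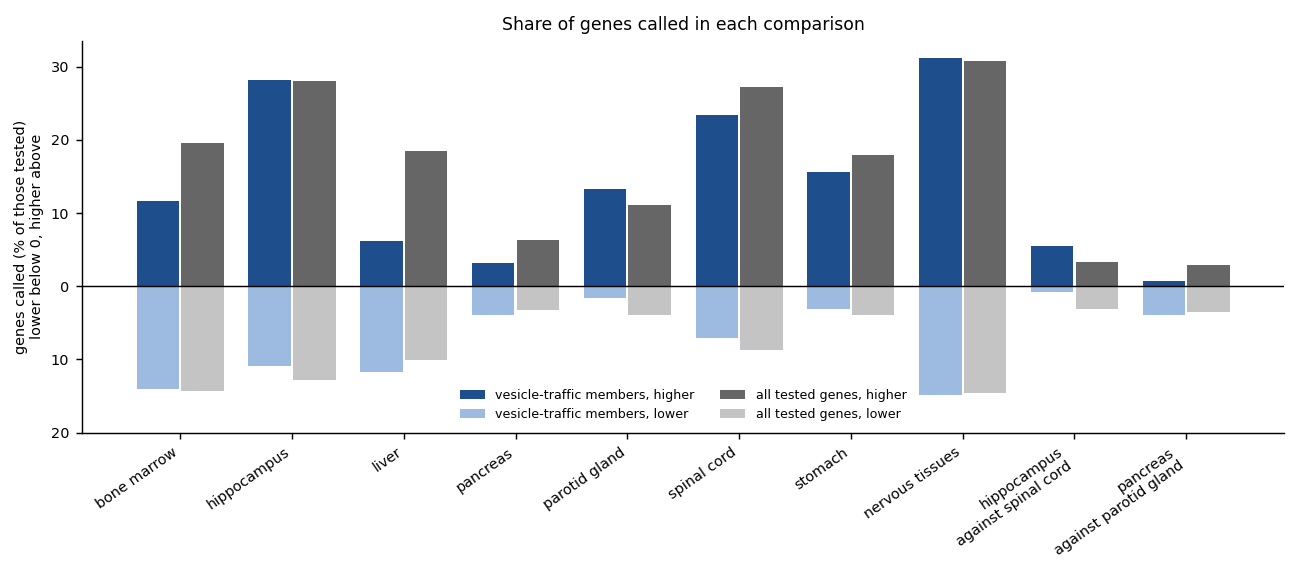
Share of genes called higher (above 0) or lower (below 0) in each comparison, in percent of those tested, for 128 vesicle-traffic genes (blue) and for all 14682 tested genes (grey). In the nervous comparison 40 vesicle-traffic genes were higher and 19 lower, and the blue and grey bars have nearly equal heights.

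Taken as a pair, hippocampus and spinal cord had 40 of the 128 genes higher and 19 lower than the mean of the 5 other tissues. The background was 45.3% of all tested genes, 30.8% higher and 14.5% lower, so the counts of the set lay near it. The median log2 difference was 0.55 for these genes and 0.22 for all genes; with tissues at 0 set to the 3-count floor it was 0.47. Of the neuronal Rabs, all 5 tested members were called higher, and the joint test called 4 of them. This list was drawn up as neuronal with earlier results of these data known. Rab9b, with a count in only 1 of the 10 other libraries, passed the filter on low counts through the nervous libraries. It could therefore only be called higher, so the count of 5 is a description and no test of the list. For Rab15, 1 of the 5, the groups overlapped, with a mean of 52.5 CPM in parotid gland and 23.6 CPM in spinal cord. Of the Rabs of secretory granules and synaptic vesicles 4 of 8 rose and 3 fell, of which Rab27b turned to a log2 difference of 0.28 with plain library totals. Rab3b, of this list, had no count outside the nervous libraries and could likewise only be called higher. The 5 neuron markers rose with the higher genes, and the part of cell composition in these differences was not tested.

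Rab3a, the Rab of synaptic vesicles, had 270 and 264 CPM in hippocampus (male, female) and 245 and 260 CPM in spinal cord. The other 10 libraries ran from 1.29 to 21.6 CPM with a median of 8.51, so the groups did not overlap. The log2 difference was 5.30 ± 0.23 (SE, adjusted p = 1.83e-12, edgeR). Rab3b, a close relative of Rab3a, had 4.56 and 2.61 CPM in hippocampus and 0.793 and 1.18 CPM in spinal cord, with no count in the 10 other libraries, and these levels lay below what a count of 0 allows in pancreas.

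Rab6b, the brain form of a Golgi Rab, had 128 and 130 CPM in hippocampus and 109 and 114 CPM in spinal cord, against 0 to 7.87 CPM elsewhere (log2 difference 6.07 ± 0.28, adjusted p = 5.69e-12). Its widely expressed relative Rab6a, which serves transport from endosomes through the Golgi, was higher in the same tissues but present in all. It had 366 and 354 CPM in hippocampus and 240 and 267 CPM in spinal cord, against 23 to 96 CPM in the other 10 libraries. Its log2 difference was 2.63 ± 0.20 (adjusted p = 2.02e-09), and its groups did not overlap.

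Among the other neuronal Rabs, Rab9b had 9.65 and 7.84 CPM in hippocampus and 12.3 and 12.4 CPM in spinal cord, and a count in only 1 of the 10 other libraries, female stomach with 1.04 CPM. Rab40b and Rab39b were called at levels of at most 5.09 and 2.63 CPM, below what a count of 0 allows in pancreas. Rab33a, of the same list, had 24 counts in all and was not tested; its counts all lay in the 4 nervous libraries. Dennd5a, which binds Rab6 and acts as an exchange factor, had 74.4 and 70.2 CPM in hippocampus and 89.2 and 107 CPM in spinal cord, against 0 to 41.3 CPM elsewhere.

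The effectors of the Rab11 recycling pathway divided between tissues. Rab11fip2, Rab11fip3, Rab11fip4 and Rab11fip5 were called higher in nervous tissue, whereas Rab11fip1 was called lower. Rab11fip1 had 0 to 0.793 CPM in the 4 nervous libraries, against 1 to 25.1 CPM in the other 10 (log2 difference -3.86 ± 0.52, adjusted p = 4.21e-06). Rab11a itself, which they bind, was called lower under TMM scaling, and its log2 difference turned to 0.43 with plain library totals.

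Of the 19 lower genes, Rab3d is described with the glands. Stxbp2, the Munc18-2 protein of granule release in blood cells and epithelia, had 25.5 and 26.3 CPM in hippocampus and 8.33 and 7.66 CPM in spinal cord, against 32.9 to 125 CPM elsewhere (log2 difference -2.20 ± 0.25, adjusted p = 4.50e-07). Rab8a, which carries cargo to the plasma membrane and the cilium, had 8.4 to 11.3 CPM in the nervous libraries and 10.2 to 35.8 CPM elsewhere, with a log2 difference of -1.45 ± 0.24 under TMM scaling and 0.26 with plain library totals. Of the 19 lower genes 11 turned direction in this way, among them Rab2a, Rab11a, Vps4b, Vps36 and Vps54, and library totals moved the median of all genes in this comparison by 1.65 on the log2 scale.

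Partner genes that the titles do not cover were counted from lists, to be read against the background of 30.8% higher and 14.5% lower. Of 17 tested SNAREs, 5 were higher and 5 lower in nervous tissue. Higher ones included Snap25, the SNARE partner of syntaxin 1 (516 CPM in hippocampus and 545 CPM in spinal cord on average), and Vamp2, the synaptic vesicle SNARE (410 and 133 CPM). Vamp8 and Snap23, which serve fusion outside neurons, were among the lower ones, with tissue means of 6.94 and 3.35 CPM in hippocampus. Of 4 genes that recycle SNAREs, Nsf, Napb and Napg were higher and Napa was not called. Of 14 Rab effectors and exchange factors, 8 were higher and 2 lower, and Rph3a, an effector of Rab3a, averaged 56.6 CPM in hippocampus and 120 CPM in spinal cord and at most 0.174 CPM in any other tissue.

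**Figure D2:**
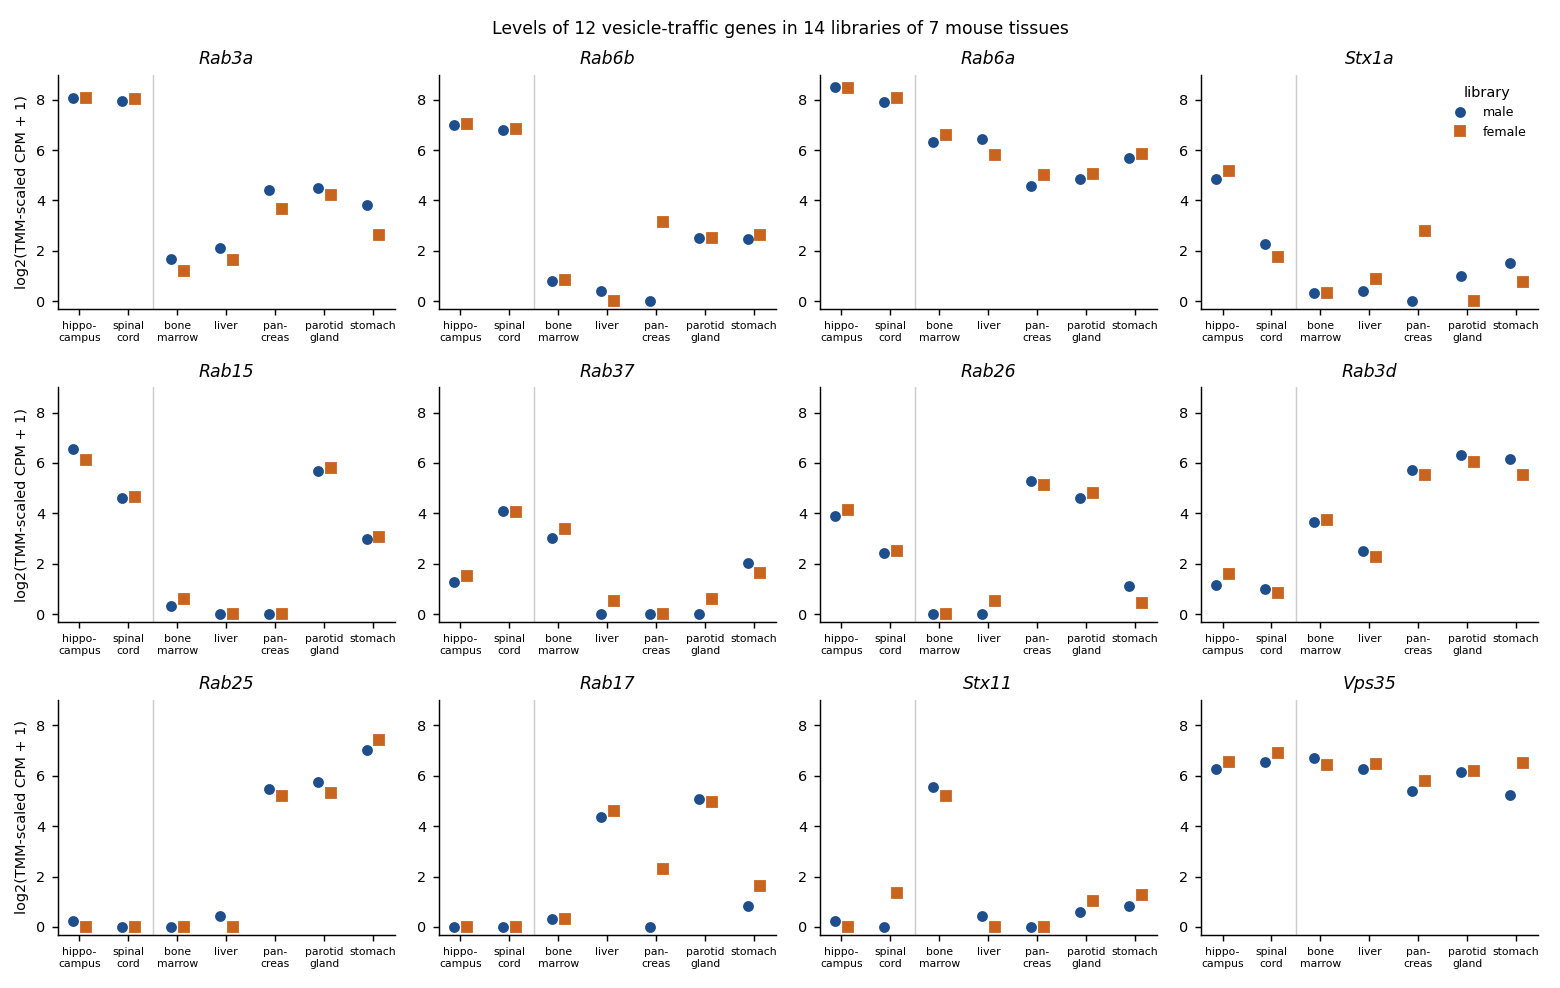
Levels of 12 genes as log2(TMM-scaled CPM + 1) on the vertical axis, by tissue, with 1 point per library (circles male, squares female) and nervous tissues left of the grey line. Rab3a, Rab6b and Rab6a sit high in the 4 nervous libraries, Rab3d and Rab25 in pancreas, parotid gland and stomach, Stx11 in bone marrow, and Vps35 is present throughout.

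Between the nervous tissues 8 of the 128 genes were called, 7 higher and 1 lower in hippocampus than in spinal cord, against a background of 6.38% of all tested genes, 3.26% higher and 3.12% lower. Stx1a, the presynaptic syntaxin, had 27.7 and 34.9 CPM in hippocampus and 3.77 and 2.36 CPM in spinal cord (log2 difference 3.35 ± 0.53, adjusted p = 6.52e-04). Arhgap33, a member of the sorting nexins, had 27.6 and 35.8 CPM against 7.34 and 6.09 CPM. Rab15, a Rab of recycling endosomes, had 94.3 and 67.9 CPM in hippocampus and 23.4 and 23.8 CPM in spinal cord. Rab26, Rab11fip2, Rab40b and Stxbp2 were the other higher genes.

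Rab37, which is known from secretory granules, was the 1 gene lower in hippocampus, at 1.4 and 1.87 CPM against 15.9 and 15.7 CPM in spinal cord (log2 difference -3.25 ± 0.53, adjusted p = 1.01e-03). Bone marrow had the next highest level, 7.09 and 9.52 CPM. The spinal cord libraries also held bone marrow markers, whose summed level was 3128 and 2905 CPM there, against 365 and 378 CPM in hippocampus and 248859 and 272650 CPM in marrow itself. Myelin markers summed to 1792 and 1595 CPM in hippocampus, against 6672 and 6478 CPM in spinal cord. The part of the marrow and myelin markers in the Rab37 difference was not tested. Leaving out 1 library of either tissue left 2 or 3 called genes in place of 8: 3 without either hippocampus library and 2 without either spinal cord library.

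Pancreas, parotid gland and stomach shared high levels of Rab3d and Rab25, and the 2 glands also of Rab26. Rab3d, the Rab3 form of exocrine granules, had 51.2 and 45.2 CPM in pancreas, 77.8 and 65 CPM in parotid gland and 70.8 and 44.9 CPM in stomach (male, female). Bone marrow had 11.7 and 12.4 CPM, liver 4.68 and 3.79 CPM, and the 4 nervous libraries 0.785 to 2.05 CPM. These 4 lay below all 10 others (nervous tissues against the 5 others, log2 difference -4.34 ± 0.31, adjusted p = 1.10e-09), so Rab3a and Rab3d were high in different tissues.

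Rab25, the epithelial relative of Rab11 that serves apical recycling, had 130 and 170 CPM in stomach, 53.1 and 38.8 CPM in parotid gland and 43.5 and 35.4 CPM in pancreas. In the other 8 libraries it had 0 to 0.335 CPM. Rab26, a Rab of acinar granule maturation, had 38.4 and 33.4 CPM in pancreas and 23.7 and 26.7 CPM in parotid gland, and 13.7 and 16.6 CPM in hippocampus. Stomach, which shared Rab3d and Rab25 with the glands, had 1.14 and 0.348 CPM of Rab26. Bone marrow had no count of it, which puts parotid gland at least 33.5-fold above marrow.

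In parotid gland 17 genes were called higher and 2 lower than the mean of the other 6 tissues, beside a background of 15% of all tested genes, 11.1% higher and 3.86% lower. The median log2 difference was -0.09 for the 128 genes and -0.02 for all genes. All 3 epithelial Rabs of the fixed list rose, Rab17, Rab25 and Rab11fip1. Rab17, which acts in transcytosis across epithelia, had 32.5 and 30.4 CPM in parotid gland and 19.7 and 23.6 CPM in liver, and 0 to 3.93 CPM in the 10 libraries of the 5 other tissues. Rab15, high in hippocampus, was also high here with 50 and 55 CPM. Rab4a, the Rab of fast recycling, had 47.9 and 48.2 CPM, above the 2.56 to 25.6 CPM of the 12 other libraries. Rab6a (27.8 and 32.5 CPM) and Rab31 (3.09 and 2.1 CPM) were the 2 lower genes. Without the female parotid library 12 genes were called, and 10 without the male one.

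In pancreas 4 genes were called higher and 5 lower than the mean of the other 6 tissues, beside a background of 9.57% of all tested genes, 6.33% higher and 3.24% lower. The median log2 difference was -0.52 for the 128 genes and -0.59 for all genes, and -0.27 for the 128 with tissues at 0 set to the floor. Rab25, Rab26, Rab3d and Snx18 were the higher ones. Snx18, a sorting nexin of clathrin-coated pits and autophagy, had 46.1 and 61 CPM in pancreas and 12.5 to 57.5 CPM in the other tissues, with stomach closest. Dennd5a, Rab6a, Snx10 and Stx4a were among the lower ones, and the level of Dennd5a was 0 and 3.93 CPM against 7.31 to 107 CPM elsewhere.

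These pancreas results changed with the scaling. With plain library totals 2 genes were higher and 114 lower, the log2 difference of Rab3d turned to -0.48 and that of Snx18 to -1.78, and the median of all genes moved by -2.67. Without either pancreas library 5 genes were called. Without the female stomach library 19 were called, 16 without the male one and 18 without both.

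Pancreas and parotid gland, which share enzyme secretion, differed in 6 genes, 1 higher and 5 lower in pancreas, beside a background of 6.31% of all tested genes, 2.84% higher and 3.47% lower. Snx18 was the higher one, with 46.1 and 61 CPM in pancreas against 16 and 15.2 CPM in parotid gland (log2 difference 1.78 ± 0.39, adjusted p = 7.91e-03). Rab15 had no count in either pancreas library and 50 and 55 CPM in parotid gland, at least 7.73-fold higher in parotid gland (adjusted p = 5.59e-05). Rab17, Rab3gap1, Rab11fip4 and Stx17 were the other lower genes. Rab11fip4 had no count in either pancreas library, which bounds it only at 1.6-fold or more higher in parotid gland, under the fold of 2 asked for. The others had few counts in pancreas, where 1 count was worth 2.56 and 1.97 CPM. Rab17 had 0 and 3.93 CPM there, Rab3gap1 7.68 and 1.97 CPM and Stx17 10.2 and 1.97 CPM (male, female). Leaving out 1 library lowered the 6 calls to 3 without the female pancreas library and to 2 without either parotid library. Plain library totals gave 83 lower genes and none higher, and moved the median of all genes by -1.71 on the log2 scale.

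In stomach 20 genes were called higher and 4 lower than the mean of the other 6 tissues, beside a background of 21.8% of all tested genes, 17.9% higher and 3.93% lower. The median log2 difference was 0.27 for the 128 genes and 0.17 for all genes, and 0.12 for the 128 with the floor. Rab25, the more abundant Rab27b cluster, Rab3d, Snx6 and Rab11fip1 had the smallest adjusted p. Rab27b, a Rab of granule docking, had 112 and 48 CPM in stomach against 0 to 22.2 CPM in the 12 other libraries. Its relative Rab27a had 49.5 and 18.1 CPM in stomach, 20.1 and 15.2 CPM in parotid gland and 13.4 and 12.4 CPM in bone marrow, and was lowest in liver with 0.335 and 0.843 CPM. Both this Rab27b cluster and Rab27a were among the 38 genes for which the stomach pair stood apart. Rab25, Rab3d, Snx6 and Rab11fip1 were not.

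Snx6, a sorting nexin that works with retromer, had 75.4 and 99.2 CPM in stomach and 9.27 to 29.5 CPM elsewhere (log2 difference 2.47 ± 0.23, adjusted p = 1.20e-07). Rab38, a Rab of lysosome-related organelles, was also called higher, with 13.7 and 16.4 CPM in stomach. Without the female stomach library the count was 41 genes, 25 higher and 16 lower. Without the male one the count changed by less than 1.5 times. Beside stomach markers, the stomach libraries held squamous epithelium markers, with a summed level of 788 CPM in the male and 1401 CPM in the female library. Of these, Krt4 had 474 and 1282 CPM (male, female), whereas Krt5, Krt14 and Krt13 were lower in the female library. Liver markers summed to 1295 and 2096 CPM, of which Apoa1 held 1204 and 1466 CPM and Alb 85.3 and 623 CPM (male, female). The liver markers Serpinc1 and Fgg had at most 5.57 CPM in these libraries. Pancreas acinar markers summed to 607 and 656 CPM (male, female). The part of these markers in the stomach results was not tested.

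Bone marrow had 15 genes higher and 18 lower than the mean of the other 6 tissues, beside a background of 34% of all tested genes, 19.6% higher and 14.3% lower. The median log2 difference was -0.02 for the 128 genes and -0.19 for all genes. Stx11, a syntaxin of granule release in immune cells, had 45.7 and 36 CPM in marrow and 0 to 1.57 CPM in the 12 other libraries (adjusted p = 2.85e-09). Rab3il1, an exchange factor for Rab3 and Rab8, had 7.82 and 2.83 CPM and at most 0.515 CPM elsewhere. Neither had a count in pancreas, where the marrow level of Stx11 lay above the limit that a count of 0 allows and the female marrow level of Rab3il1 below it.

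Rab32, a relative of Rab38, had 14.4 and 11.3 CPM in marrow and 19.4 and 21.9 CPM in liver, and at most 4.19 CPM in the other tissues. Snx5, a partner of Snx1 and Snx6 in coats that tubulate endosomes, had 102 and 93.4 CPM in marrow against 17.9 to 53.9 CPM elsewhere. Lower genes included Rab3a, Rab26, Rab6b, Stxbp6 and Vps37a. Stxbp6 had 0.978 and 1.8 CPM in marrow, below the 1.97 to 17.3 CPM of all other libraries. Without the female marrow library 17 genes were called, and 21 without the male one.

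Liver had 8 genes higher and 15 lower, beside a background of 28.5% of all tested genes, 18.5% higher and 10.1% lower. The median log2 difference was -0.14 for the 128 genes and -0.16 for all genes. Secretory granule and synaptic vesicle Rabs included 5 of 8 called lower: Rab3a, Rab3d, Rab27a and both Rab27b clusters. The more abundant Rab27b cluster had 0 and 0.843 CPM in liver and at least 3.14 CPM in every other library. Rab11fip5 had 0.669 and 0 CPM, against 2.06 to 39.7 CPM in the other tissues.

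Higher genes in liver were Rab17, Rab32 and Rab14 first. Rab14, a Rab of transport between the Golgi and endosomes, had 140 and 129 CPM in liver and 33.4 to 89.2 CPM elsewhere (log2 difference 1.14 ± 0.23, adjusted p = 7.36e-04). Snx7 had 11.7 and 13.5 CPM in liver, within the range of the other tissues, which reached 23 CPM in the female stomach library. Without the female liver library 12 genes were called and 14 without the male one.

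**Figure D3:**
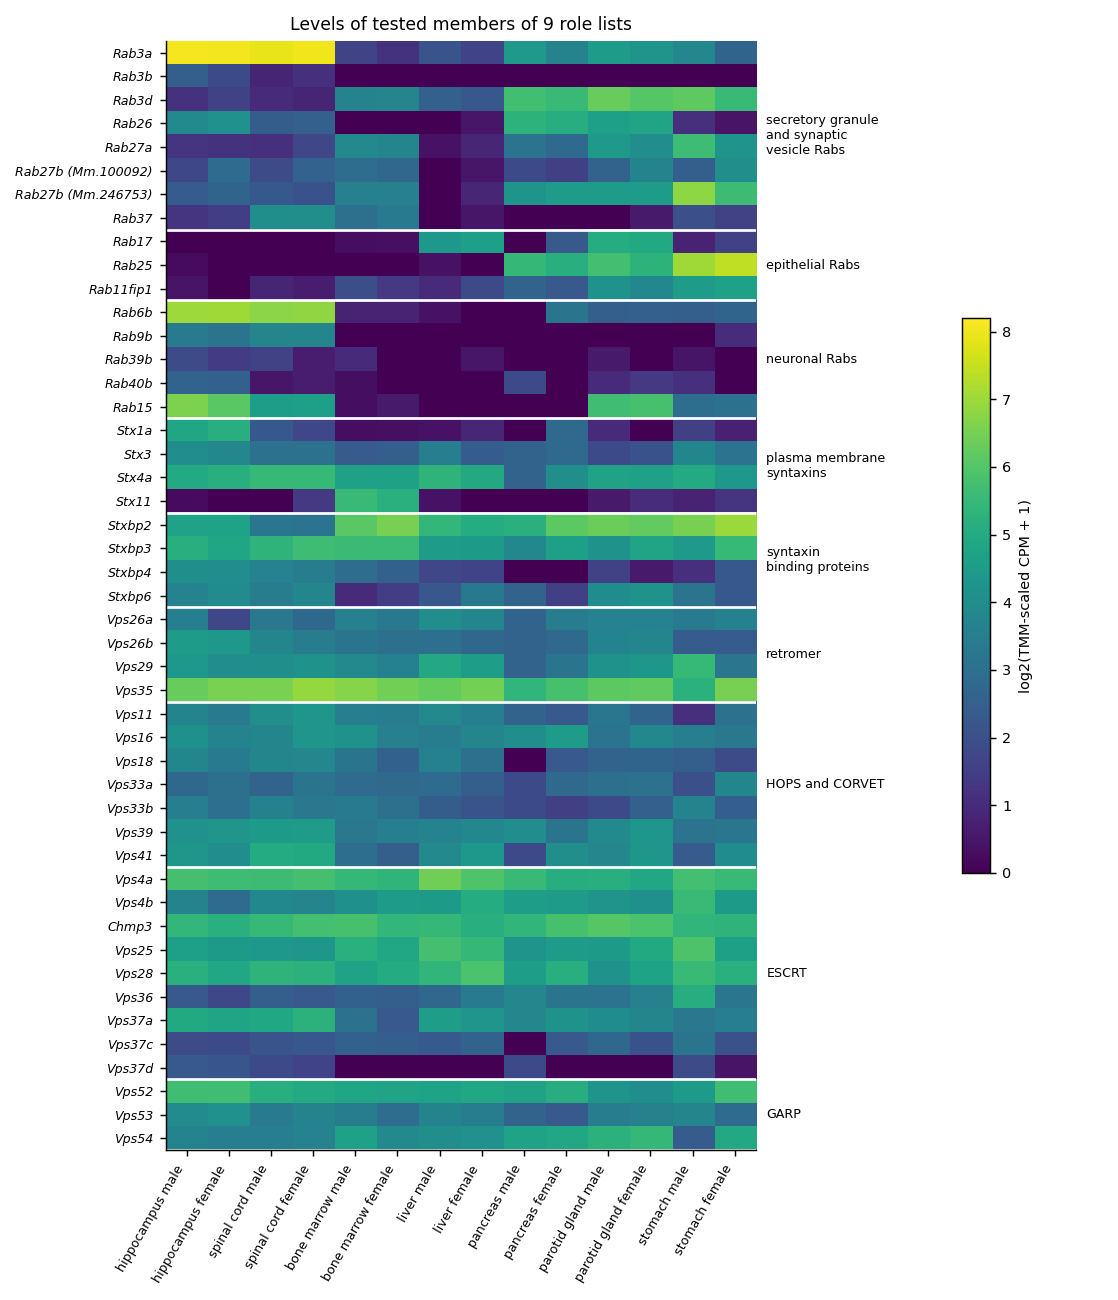
Levels of tested members of 9 role lists as a colour scale of log2(TMM-scaled CPM + 1), 1 row per gene and 1 column per library. Secretory, epithelial and neuronal Rabs differ by tissue, while Vps35, Vps4a, Chmp3 and Vps28 are present in all 14 libraries.

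The general sorting machinery is described by complex. Of the 29 vacuolar protein sorting genes 10 (34.5%) were called in at least 1 of the 7 tissues, against 47 of 59 RAB genes (79.7%), 14 of 17 syntaxin genes (82.4%) and 17 of 23 sorting nexins (73.9%), beside 81.3% of all tested genes. These shares, with that of all tested genes, come from the fit to all 14 libraries. The share of vacuolar protein sorting genes was larger without the female stomach library. For that fit no share over all tested genes is given, so it cannot be set beside 81.3%. The difference between the shares of the 4 title groups was not tested. The highest tissue was at the median 1.23-fold above the next one for the vacuolar protein sorting genes and 1.42-fold for the RAB genes.

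Vps35, the core subunit of retromer, had 36.9 to 118 CPM over the 14 libraries. With all libraries it was called neither between tissues nor in the joint test (adjusted p = 0.168, edgeR), and the same held for Vps29 (0.149) and Vps26a (0.308), the other retromer subunits. The male and female stomach libraries had 36.9 and 90.5 CPM of Vps35 and 43.8 and 8.35 CPM of Vps29. Without the female stomach library the joint test called all 3 (adjusted p = 5.53e-06, 7.53e-08 and 0.0182 in the same order, edgeR), as it did without the male one. Vps26b, an alternative to Vps26a, rose in hippocampus, with 22.1 and 19.8 CPM, and was lower in stomach, with 4.19 and 4.18 CPM. In stomach its direction turned to a log2 difference of 0.48 when only tags of class 1 were counted.

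Among the ESCRT genes, Vps4a, the ATPase that disassembles the coat, Chmp3, a subunit of its filament, and Vps28 were called neither between tissues nor, with all libraries, in the joint test. Without either stomach library the joint test called Vps4a and Vps28 but not Chmp3. Their levels ran from 29.3 to 85.6 CPM for Vps4a, 34.1 to 64.9 CPM for Chmp3 and 17.5 to 57.7 CPM for Vps28. Of the 9 tested ESCRT genes, Vps37a and Vps37d were higher in nervous tissue, and Vps4b and Vps36 were lower. With plain library totals, which moved the median of all genes as given above, their log2 differences were 0.60 (adjusted p = 0.0533) and 0.36 (adjusted p = 0.394, edgeR), without a call. Vps25 had 17.9 to 59.4 CPM over the libraries and was called in the joint test only.

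Of 7 tested HOPS and CORVET genes 3 were called higher in spinal cord, Vps11, Vps18 and Vps41. Vps41 had 32.3 and 30.4 CPM in spinal cord and 2.56 to 19.8 CPM in the other libraries, so the groups did not overlap. Spinal cord as a whole had 30 of 128 genes higher and 9 lower, beside a background of 35.9% of all tested genes, 27.3% higher and 8.67% lower, with a median log2 difference of 0.35 for the 128 genes and 0.25 for all genes. Without the female spinal cord library 25 were called. The count for hippocampus was 36 higher and 14 lower, beside a background of 40.9% of all tested genes, 28% higher and 12.9% lower, with a median log2 difference of 0.41 for the 128 genes and 0.15 for all genes, and 33 were called in all without the female hippocampus library.

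Among GARP genes, which tether vesicles at the Golgi, Vps54 was called higher in parotid gland with 37.6 and 43.5 CPM. Vps52 had 15.2 to 50.5 CPM and passed the joint test. Vps13c, a lipid transfer protein of contact sites, had 41.1 and 39.6 CPM in hippocampus and 26.2 and 26.9 CPM in spinal cord, against 0 to 6.85 CPM elsewhere.

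The most abundant Rabs were found in all tissues. Rab1a, which acts between the endoplasmic reticulum and the Golgi, had 202 and 205 CPM in pancreas, 154 and 147 CPM in parotid gland and 117 and 159 CPM in stomach, against 72.6 to 132 CPM in the other tissues. It passed the joint test but was called in no tissue comparison. Rab5a, the Rab of early endosomes, ran from 40.8 to 124 CPM. Rab10 ran from 48.6 to 99.8 CPM and was called neither between tissues nor in the joint test.

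Endosomal syntaxins were likewise broad. Stx7 had 18.7 and 21.9 CPM in liver, where it was lower, and 30.4 to 118 CPM in the other tissues. Stx8 ran from 22 to 56.7 CPM without a call, though the joint test called it without the male stomach library (adjusted p = 0.00236, edgeR). Stx12 was highest in stomach and hippocampus, with 40.4 and 57.8 CPM in stomach and 46 and 51.9 CPM in hippocampus. Stxbp3, the Munc18 form of the plasma membrane in most cells, ran from 12.8 to 49.5 CPM.

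Sorting nexins with the highest means were Snx3, Snx5, Snx2, Snx18, Snx6 and Snx10. Snx3, which recruits retromer, ran from 32.5 to 88.3 CPM and Snx2 from 19.4 to 83.1 CPM, neither with a call when all libraries were used. The joint test called both without either stomach library. Snx10 had 49 and 50 CPM in hippocampus and 1.97 to 33.2 CPM elsewhere, and was higher in hippocampus and lower in pancreas.

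Likeness of pattern was described by Pearson's r of log2(CPM + 1) over the 14 libraries, which share depth, tissue and scaling, so no p is given. Rab3a was most like Rab6b (r = 0.92), and Rab6b most like Rab9b (0.93). Rab25 was most like Rab11fip1 (0.91) and Rab3d (0.89). Rab27a was most like Rab27b (0.92), Stx11 like Rab3il1 (0.93), Rab15 like Rab11fip4 (0.92), and Rab26 like Snx16 (0.88). For Rab17 the nearest was Rab20, at 0.74.

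Some genes gave more than 1 tag, and the tags of 1 gene were not always used alike. Of the genes, 32 had a second tag with at least 100 counts, and the share of that tag among both differed by over 25 points between the 4 nervous and the 10 other libraries in 8 of them. A tag marks a GATC site in a transcript, so a shift of this kind can come with another transcript end or form, which the tags alone do not identify. Both tags of the 4 genes with the largest differences between pooled counts are given here, first the more abundant one.
Stx3 first: GATCtaggaagggtttcaac
Stx3 second: GATCtgagagacagcctcac
Vps36 first: GATCaacgagaccctggtta
Vps36 second: GATCtagcttgtggcttcac
Vps37a first: GATCtgaaaactcttaatgg
Vps37a second: GATCaaaagctcaattcaaa
Stx18 first: GATCctcttcttcctcgtga
Stx18 second: GATCcctctacagacaagtt

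In Stx3, a syntaxin of the plasma membrane, the second tag made up 25.9% of both tags in the nervous libraries (95% interval 19.9 to 32.6%) and 78.3% (68.4 to 86.2%) in the 10 others. The pools held unlike tissues: the share was 17.3 and 20.6% in hippocampus (male, female) but 40.6 and 44.4% in spinal cord. Among the others it was 43.8 and 58.3% in stomach and 100% in both liver libraries, which gave 31 and 10 of the 72 counts of the second tag. In Vps36, an ESCRT subunit, it made up 83.1% (72.9 to 90.7%) in the nervous libraries and 30.9% (25 to 37.3%) in the others. The shift ran the other way in the ESCRT subunit Vps37a, with 27.1% (22.8 to 31.6%) against 78.1% (69.4 to 85.3%).

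In Stx18, a syntaxin of the endoplasmic reticulum, the second tag had 52.6% (46.7 to 58.4%) in the nervous libraries and 11.6% (7.67 to 16.7%) in the others. The intervals are exact Clopper-Pearson ones on pooled counts and cover counting error only, and no test across libraries was made. The first Vps37a tag had 70 and 64 counts in hippocampus (male, female) and 71 and 97 in spinal cord, against 0 to 8 in each of the others. For Vps36, Vps37a and Stx18 the 4 nervous libraries lay apart from each other library with at least 5 counts of the pair, as the plot of tag shares shows, and for Stx3 spinal cord overlapped stomach.

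**Figure D4:**
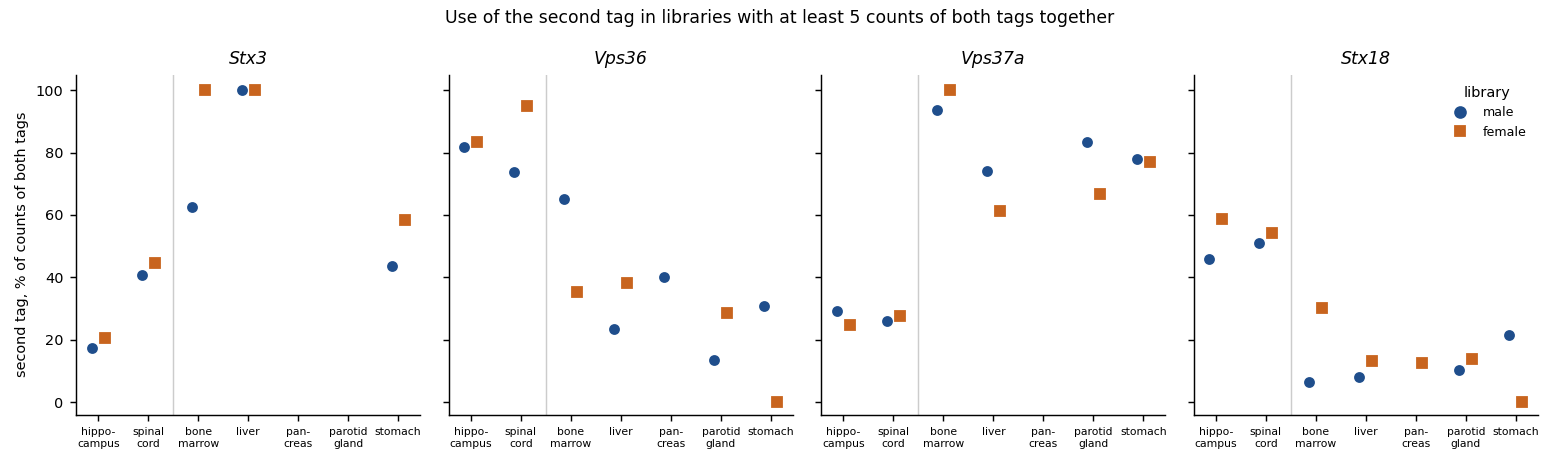
Share of the second tag among both tags, in percent, for Stx3, Vps36, Vps37a and Stx18 by tissue, with 1 point per library that held at least 5 counts of the pair. The nervous libraries lie below all others shown for Vps37a and above them for Vps36 and Stx18, while for Stx3 the male stomach library (43.8%) lies beside the spinal cord libraries.

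Over the 7 tissues no gene of the set differed between male and female libraries (edgeR, adjusted p under 0.05), beside a background of 0.0613% of all tested genes, 0.0477% higher and 0.0136% lower in male libraries. Without the stomach pair, which stands apart, 0.602% of all tested genes differed and again no gene of the set, with 4 at an unadjusted p under 0.05. With all libraries, at an unadjusted p under 0.05 edgeR gave 1 gene, and DESeq2 and limma voom called none after adjustment. The 3 smallest p belonged to the rarer Rab27b cluster (log2 male over female -0.96 ± 0.33, unadjusted p = 0.00978), Rab39b (1.27) and Rab7 (0.76).

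In the stomach pair, by contrast, the male to female difference departed from that in the other 6 tissues for 38 of 128 genes (29.7%, background 22.3%), 17 higher and 21 lower in the male library. Stomach has 1 library per sex, so the p-values and the SE given here rest on the spread among the other tissues and assume that stomach libraries vary like them. Rab1b, a Rab between the endoplasmic reticulum and the Golgi, had 75.8 CPM in the male and 9.4 CPM in the female stomach library. Its difference from the other tissues was 3.14 ± 0.43 on the log2 scale. In the other direction Snx17, which returns receptors from endosomes, had 2.67 CPM in the male and 27.8 CPM in the female library, a log2 difference of -3.34 ± 0.58.

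The direction varied with the base composition of the tags. The most abundant tags of 1 gene higher in the male library, of 2 genes lower there, and both tags of Snx19 show it.
Rab1b: GATCcagggtcctgcatcgg
Vps54: GATCtttataaaaaataaac
Rab11fip3: GATCaatttttttaatactt
Snx19 first: GATCgctgtatataattata
Snx19 second: GATCcctccacaagattctg

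Among the 16 bases after the site, the median number of G and C was 9 for the 17 genes higher in the male library, 5 for the 21 lower ones and 8 for the rest. Across the 128 genes, Spearman's rank correlation between this number and the male to female difference was 0.62 in stomach and between -0.18 and 0.12 in the other 6 tissues. Genes share libraries and are not independent, so no p is given.

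The same held between tags of 1 gene. The first Snx19 tag, with 3 G or C, had 1 count in the male and 53 in the female stomach library, and the second, with 8, had 9 and 0. The second Rab21 tag, with 1 G or C against 8 in the first, had 13.8% of both tags in the male and 61.2% in the female library. Of 28 pairs with unequal composition, the tag richer in G and C had the larger share in the male library in 19 and the smaller share in 9. The cause was not tested.

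**Figure D5:**
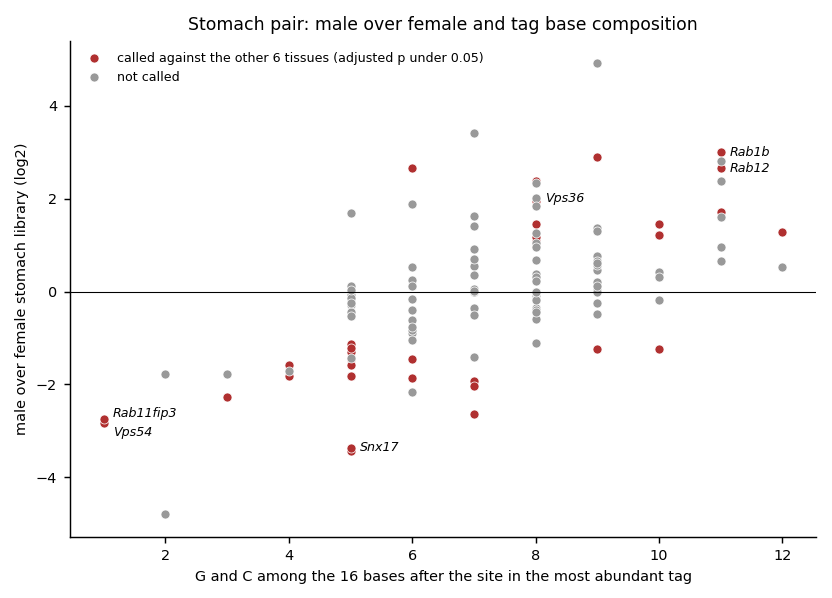
Log2 difference of male over female level in stomach on the vertical axis against the number of G and C among 16 tag bases on the horizontal axis, with 1 point per gene of the set. The points run from below 0 at few G and C to above 0 at many.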

How the data were processed

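Tags of 20 bases were counted in 14 libraries. The deposited files hold raw counts per tag, a class code and a UniGene cluster with its title; no source used here names an aligner or build or explains the codes. Codes 1 to 4 were taken as the sense strand and 11 to 16 as the reverse, which is an assumption. Counts of codes 1 to 4 were summed per cluster. edgeR 4.0.16 (R 4.3.3) fitted tissue and sex to all 14 libraries with TMM scaling, its filter on low counts (14682 genes kept) and 6 residual degrees of freedom. Its quasi-likelihood test was adjusted by Benjamini-Hochberg over all 14682 genes. Alternatives used DESeq2 1.42.0, limma 3.58.1, library totals, code 1, the top tag, no filter, no sex term and each library left out.

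Data were simulated for the bone marrow comparison (14682 genes). Of the genes changed 2-fold 29.9% were recovered, of those changed 4-fold 95.5% and of those changed 8-fold 100%. Changes were set only in genes with a mean above 5 CPM, and each gene had the same level in all other tissues. The call rule asks for an estimated fold of at least 2, which limits recovery at 2-fold. Recovery for rarer genes, for genes that differ among the other tissues and for pancreas was not measured. The genes and lists were chosen with earlier results of these data known. Named genes are the 6 most abundant per title group, up to 5 per direction and comparison by adjusted p, and the members of the role lists. Rab4a, Rab38 in stomach, Rab11fip2 to Rab11fip5 and Vps13c in nervous tissue, and the genes named in counts of called genes, were picked after their values were seen. Sequences are the deposited tags. Some genes of the set are not reported here.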

Additional observations from a re-analysis of the deposited data

Results flagged for a closer look

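In stomach, the male to female difference of 38 genes departed from that in the other 6 tissues. The log2 difference was 3.14 for Rab1b, 2.23 for Vps29, 3.03 for Rab12 and 1.41 for Rab2a, all higher in the male library. It was -3.34 for Snx17, -2.93 for Vps54, -3.07 for Rab11fip3 and -2.12 for Vps13d. These rest on 1 library per sex.

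Tags of the reverse codes were not used in the comparisons and outnumbered the counted tags for 7 genes. Rab5c had 2000 reverse counts, Rab11b 658, Rab11fip1 236, Rab8b 170, Rab39b 100, Rab9 51 and Rab39 9. The main tag of the Rab8b cluster carries the accession of another gene, so its values are uncertain. All 100 of Rab39b lay in the 4 nervous libraries.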

How the results depend on the processing

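With library totals in place of TMM, 92 genes were called for hippocampus, 116 for pancreas, 58 for parotid gland and 101 for spinal cord. It was 39 for stomach, 104 for nervous tissue and 83 for pancreas against parotid gland. The median of all genes moved too, by 1.30 in hippocampus, -2.67 in pancreas, -1.02 in parotid gland and 1.43 in spinal cord (log2). Shares over all tested genes are not given for the settings with other scaling, limma voom or 1 library left out. Their counts are therefore not results about the set. Library totals also turned Rab8a (log2 0.0057 in hippocampus, 0.43 in spinal cord, 0.26 in nervous tissue), Rab3d (-0.48) and Snx18 (-1.78) in pancreas. Tags of code 1 alone turned Vps26b in stomach to 0.48. limma voom called 36 genes for liver, 25 for pancreas and 14 for pancreas against parotid gland. Leaving out both stomach libraries, chosen after seeing the data, gave 18 for pancreas, beside 15.4% of all tested genes.

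Leaving out 1 library gave 17 to 40 genes for bone marrow, 33 to 56 for hippocampus, 12 to 29 for liver, 5 to 19 for pancreas, 10 to 25 for parotid gland, 25 to 46 for spinal cord, 20 to 41 for stomach, 54 to 64 for nervous tissue, 2 to 10 for hippocampus against spinal cord and 2 to 9 for pancreas against parotid gland. Each of these fits applied the filter on low counts anew, so such counts, here and above, can include genes of the set outside the 128. A tissue left with 1 library is assumed to vary like the others. Of 87 results on named genes, 84 kept their direction and call with DESeq2 and 3 lost the call. No paired analysis was possible because the labels give no replicate numbers; sex, the only label that libraries of different tissues share, is a term of the fit, and without it all 87 kept their direction and call. The small effective size of the pancreas libraries (TMM factors 0.147 and 0.184) limits what could be detected there.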
